A study of Mus musculus with 2 samples.

Results

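Splicing factor genes are described here as they were expressed in MEL cells, erythroleukemia cells of the mouse that stop short of becoming red cells, after 5 days in 2% dimethyl sulfoxide (DMSO), an agent that makes these cells start hemoglobin synthesis. A gene was taken as a member if it is protein-coding and its symbol belongs to one of the families Srsf, Tra2, Hnrnp, Ptbp, Sf3a, Sf3b, U2af, Snrp, Prpf, Mbnl, Celf or Rbfox, or is Sf1, Rbm38 or Rbm39. This gave 88 of the 21474 protein-coding genes of the tables. Polyadenylated RNA was sequenced in 2 libraries, labelled as biological replicates 1 and 2 of a single group. Untreated cells were not analysed here, so the values describe DMSO-treated cells and not what DMSO changed. The labels give both libraries 1 shared sample identifier, so the spread between them may be technical.

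The spliceosome removes introns from pre-mRNA. It is built from small nuclear RNAs bound by proteins of the Snrp genes, Sm proteins among them. Other parts are factors that recognise the branch site and the 3′ end of the intron (Sf1, U2af, Sf3a and Sf3b). Prp proteins (the Prpf genes) join and activate the complex. SR proteins (Srsf and Tra2) mostly favour inclusion of exons and hnRNPs often oppose it, while the Mbnl, Celf and Rbfox families set splicing patterns of particular tissues. Many SR and hnRNP genes are known to yield a second kind of transcript with a premature stop codon, which nonsense-mediated decay removes, and red cell precursors are known for introns that stay in their polyadenylated RNA.

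Replicate 1 held 26149725 estimated reads and replicate 2 held 14149299, and 3 reads, the limit that a count of 0 allows, correspond to 0.115 and 0.212 CPM, which is reads scaled to depth (counting error only). Of the erythroid markers, 10 of 10 reached 1 TPM (a level corrected for transcript length and depth) in both libraries. The same held for 1 of 8 neuron, 1 of 7 muscle and 2 of 5 lymphocyte markers and for none of the 6 epithelial, 6 macrophage and granulocyte or 4 fibroblast markers. Levels below are TPM in replicate 1 and then replicate 2, with mean ± SD where given (n = 2). A gene's level sums all of its annotated transcripts, those not classed as protein-coding included.

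Of the 88 splicing factor genes, 80 reached 1 TPM in both libraries, a share of 90.9%, against 45.5% of all protein-coding genes. Their median level was 66.7 TPM, against 0.60 TPM over all protein-coding genes. Among genes that reached 1 TPM in both libraries, the medians were 75.2 TPM for the splicing factor genes and 15.5 TPM for all protein-coding genes. At least 100 TPM on average was held by 33 of the 88 members, against 837 of 21474 protein-coding genes, and at least 10 TPM by 77 members, against 6252. Together they made up 1.03% ± 0.249 of all TPM (1.21% and 0.858%) and 1.74% ± 0.327 of all reads (1.98% and 1.51%). In bulk RNA, fewer cells that express a gene and less of its RNA per cell cannot be told apart.

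SR proteins bind exons through RNA recognition motifs and recruit the splicing machinery through domains rich in arginine and serine. Of 13 genes, 12 were detected, meaning at least 1 TPM in both libraries, and their median over all 13 was 106 TPM. Srsf11, which codes for a protein of the SR family found with the U2AF complex, led with 601 and 274 TPM. Most of that, 98.0% and 89.2%, lay on transcripts annotated as retaining an intron (described below). Srsf2, whose protein SC35 marks nuclear speckles, had 461 and 243 TPM. Srsf5 had 404 and 161 TPM, and Srsf1, the founding member of the family, had 291 and 181 TPM. All 4 were higher in replicate 1, and neighbours in this order did not differ beyond the spread between libraries. The other 7 detected genes between them and Srsf7 averaged 44.2 TPM (Tra2a) to 202 TPM (Srsf4). Srsf7 was the lowest of the detected SR genes at 39.5 and 39.5 TPM. Srsf12 had no read in either library. Tra2b, a sequence-specific activator of exons, exceeded its paralog Tra2a 2.32-fold in replicate 1 and 2.53-fold in replicate 2 on the TPM scale.

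hnRNPs coat nascent transcripts, and many of them silence exons. All 23 genes of this class, Ptbp genes included, were detected, with a median of 151 TPM. Hnrnpk, which binds C-rich RNA, was the highest at 780 and 420 TPM. Hnrnpd, also known as AUF1 for its binding to AU-rich elements of unstable mRNAs, had 382 and 156 TPM. Hnrnpul1 had 245 and 235 TPM, the closest agreement among the 4 leading genes. Hnrnph2, which binds G-rich RNA, had 300 and 174 TPM. The other 17 genes, among them the core hnRNP genes Hnrnpa1, Hnrnpa2b1 and Hnrnpc, averaged 24.4 TPM (Hnrnpa0) to 236 TPM (Hnrnph1). The low end held Hnrnpll, known as a regulator of Ptprc exons in T cells, at 17.9 and 21.2 TPM, and Ptbp2.

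The Ptbp genes code for polypyrimidine tract binding proteins. Ptbp1, the form of most non-neuronal cells and a repressor of neuronal exons, had 177 and 239 TPM. Ptbp2, the form of developing neurons, had 15.8 and 7.15 TPM, and Ptbp3, first described in blood cells, had 89.0 and 65.4 TPM. The order Ptbp1, Ptbp3, Ptbp2 of these gene totals was the same in both libraries. By gene total Ptbp1 exceeded Ptbp2 11.2-fold in replicate 1 and 33.4-fold in replicate 2, so the size of the gap was uneven and its direction was not. Of the Ptbp1 total, 37.3% and 48.9% lay on protein-coding transcripts, against 100% and 57.5% for Ptbp3 and all of it for Ptbp2. On protein-coding transcripts alone, Ptbp3 was therefore above Ptbp1 in replicate 1, and the gap between Ptbp1 and Ptbp2 was smaller in both libraries.

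The branch site and U2 factors bind the 3′ part of the intron. All 14 were detected, with a median of 57.5 TPM. Rbm39, a U2AF-related protein encoded at chr2:156147239-156180238 (− strand, mm10), had the highest level of all splicing factor genes at 1536 and 823 TPM (1180 ± 505). Its mean exceeded that of 99.7% of protein-coding genes, but 77.3% and 66.5% of its TPM lay on transcripts annotated as retaining an intron. Sf1, the branch point binding protein, had 226 and 333 TPM. Sf3b1, the large subunit of the SF3B complex and a gene mutated in human myelodysplasia with ring sideroblasts, had 266 and 129 TPM. Sf3b2, another subunit, had 163 and 128 TPM. The gene totals of subunits of one complex were far apart: Sf3b1 exceeded the small subunit gene Sf3b5 41.3-fold in replicate 1 and 5.17-fold in replicate 2. Of the Sf3b1 total, 48.5% and 48.6% lay on transcripts annotated as retaining an intron, so the gap between protein-coding transcripts was smaller. Sf3b5 has a single transcript, of 3841 bases, and all of its TPM is on it. Sf3b5 had 6.44 and 25.0 TPM, and U2af1l4, a paralog of the small U2AF subunit gene, had 13.4 and 29.6 TPM. These lowest members of the class were both higher in replicate 2. The other 8 genes averaged 30.0 TPM (Sf3b4) to 76.2 TPM (U2af1). The U2AF subunit genes were close to each other, with a U2af2 to U2af1 ratio of 0.729 in replicate 1 and 0.942 in replicate 2.

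Of the 12 snRNP protein genes 11 were detected, with a median of 36.7 TPM. Snrpd2, one of the Sm proteins that form a ring on the small nuclear RNAs, led with 151 and 233 TPM. Other Sm genes were lower, with 118 and 75.8 TPM for Snrpe, 95.2 and 64.8 TPM for Snrpd1, and 43.9 and 40.6 TPM for Snrpg. Snrpg has an identical expressed pseudogene, and the sum of both was 159 and 146 TPM. This was near the level of Snrpd2 in replicate 1 but below it in replicate 2. The other 6 genes averaged 21.5 TPM (Snrpd3) to 37.8 TPM (Snrpa). Snrpf was the lowest detected gene of the class at 13.5 and 1.51 TPM as estimated, but together with a near-identical pseudogene it had 126 and 67.1 TPM, so its place in the order is uncertain. Snrpn, the imprinted gene whose protein resembles that of Snrpb and which is known from brain, had no read in either library.

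All 13 Prpf genes were detected, with a median of 74.0 TPM. Prpf3, of the tri-snRNP, had 243 and 126 TPM, and Prpf38b had 200 and 84.1 TPM. Both were higher in replicate 1, whereas Prpf19, the ubiquitin ligase that gives the Prp19 complex its name, had 71.9 TPM there and 99.7 TPM in replicate 2. A further 7 genes averaged 28.1 TPM (Prpf18) to 77.4 TPM (Prpf38a), and among them Prpf8, whose protein lies at the catalytic core, had 52.7 and 77.3 TPM. The lowest of the class were Prpf39 at 36.9 and 11.4 TPM and Prpf4 at 13.4 and 11.2 TPM.

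Of the 13 tissue regulators 7 were detected, and their median of 2.68 TPM was the lowest of the 6 classes. They split into a group of abundant genes and a group near or at 0. Mbnl1, a muscleblind gene known to act in terminal red cell differentiation, had 310 and 189 TPM. Rbm38, known in MEL cells as an activator of late erythroid exons, had 151 and 186 TPM. Mbnl2 had 41.4 and 19.9 TPM and Mbnl3 3.14 and 2.22 TPM, so that Mbnl1 exceeded Mbnl2 7.48-fold in replicate 1 and 9.51-fold in replicate 2.

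Among the Celf genes, whose proteins bind GU-rich RNA, Celf4 was the highest at 145 and 103 TPM. Celf4 is best known from brain, and it exceeded the broadly expressed Celf1 (28.3 and 29.9 TPM) 5.11-fold in replicate 1 and 3.46-fold in replicate 2. Its level rested on 13652 and 5508 reads. The neuron marker list did not share this level: its 8 genes summed to 4.47 TPM in replicate 1 and 7.13 TPM in replicate 2, and the synaptic gene Snap25 had 0.04 and 0.04 TPM. The other Celf genes were low, with 1.81 and 0.88 TPM for Celf2, 0.02 and 0.68 TPM for Celf3, 0.20 and 0.24 TPM for Celf5, and 0.06 and 0.03 TPM for Celf6. Of the Rbfox genes, which act in neurons and muscle, Rbfox2 had 3.91 and 3.52 TPM and Rbfox3, a neuron marker, had 0.03 and 0.65 TPM. Rbfox1 had no read in either library.

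**Figure D1:**
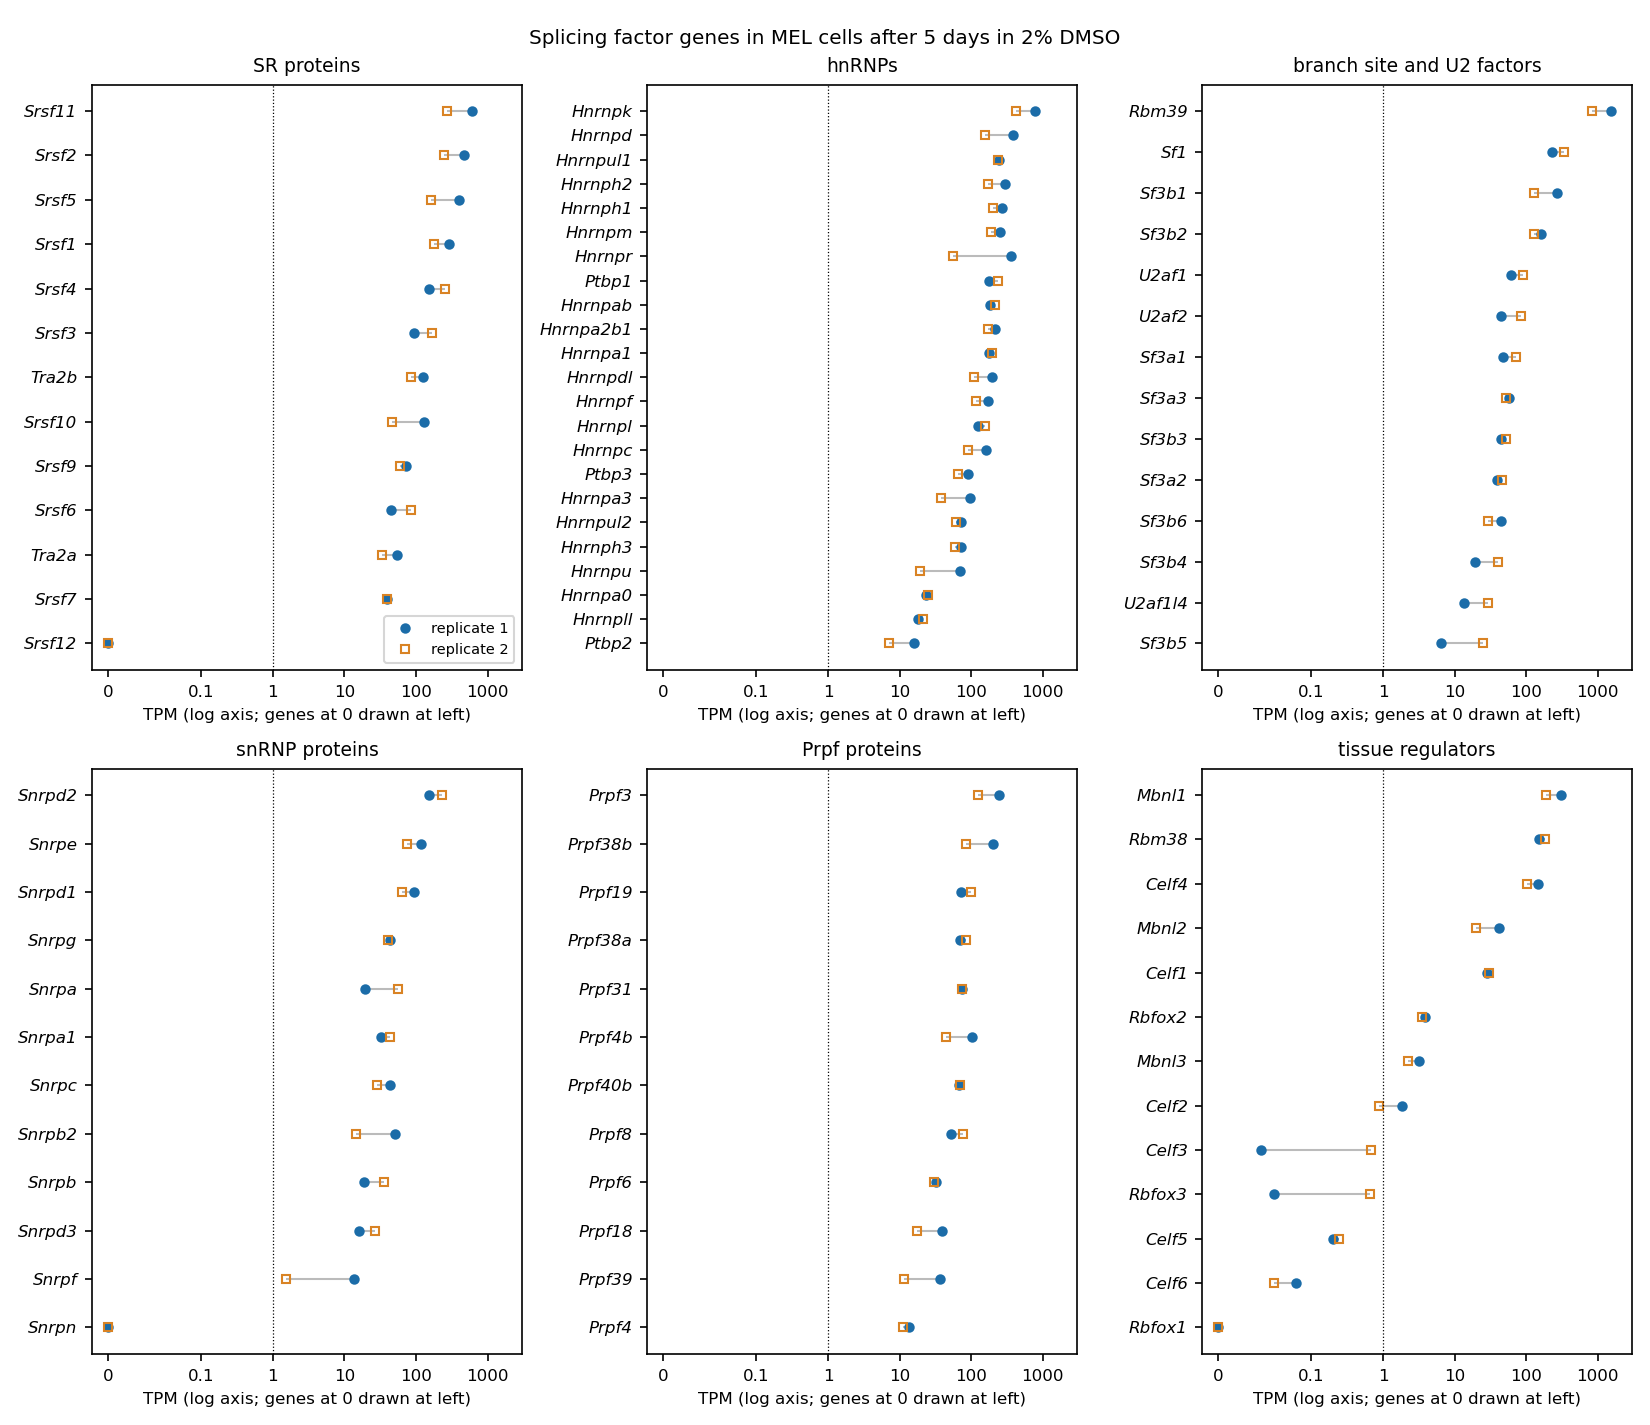
TPM of the splicing factor genes reported by name or range on a log axis, in 6 panels by role and ordered by mean level, with replicate 1 as filled circles, replicate 2 as open squares and a line joining them; genes at 0 are drawn at the left edge and the dotted line marks 1 TPM. All panels but the tissue regulators lie almost entirely to the right of the line, and Srsf12, Snrpn and Rbfox1 lie at 0 in both libraries.

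Lists of other splicing genes, none of them members by symbol, were read for comparison. Of the core snRNP and Lsm genes, 22 of 23 were detected with a median of 46.1 TPM, led by Snrnp27 (235 and 249 TPM), Snrnp70 (177 and 261 TPM) and Snrnp25 (94.6 and 109 TPM), with Snrnp35 lowest (2.07 and 2.44 TPM). Helicases and the Prp19-associated genes were detected in 23 of 23 cases with a median of 37.0 TPM, led by Cwc15 (636 and 592 TPM), Bcas2 (459 and 192 TPM) and Ddx23 (139 and 291 TPM), with Ddx41 lowest (9.15 and 22.2 TPM). The genes of both lists were thus detected about as completely as the Prpf genes. The kinases that phosphorylate SR proteins were detected in 6 of 7 cases with a median of 41.8 TPM. Clk1 had 397 and 194 TPM, Clk4 144 and 45.8 TPM, and Clk2 66.1 and 74.0 TPM, while the muscle kinase gene Srpk3 had 0.05 and 0 TPM.

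All 15 genes of the exon junction complex and of nonsense-mediated decay were detected, with a median of 34.1 TPM. The highest were Acin1 (251 and 272 TPM), Eif4a3 (112 and 165 TPM) and Rbm8a (90.3 and 77.0 TPM), and Smg1, the kinase of the decay pathway, was the lowest (17.9 and 11.9 TPM). Of 40 other regulators 34 were detected, with a median of 89.2 TPM. Ewsr1 had 875 and 738 TPM, Pcbp2 558 and 757 TPM and Sfpq 911 and 326 TPM, and the epithelial regulator Esrp1 had no read in either library.

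How far the libraries agreed was read from the log2 ratio of counts in replicate 1 over replicate 2, scaled by TMM (a factor that sets the typical gene to no difference), wherever a gene averaged 10 counts or more. With 1 library against 1 this ratio has no replicate check and no p-value. It lay at a median of 0.54 over the 84 splicing factor genes with enough counts, against −0.01 over 11452 protein-coding genes. At least 2-fold higher in replicate 1 were 27 of the 84 members, and 4 were at least 2-fold higher in replicate 2. Over all protein-coding genes these shares were 15.2% higher in replicate 1 and 13.4% higher in replicate 2.

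The hnRNP genes had a median log2 ratio of 1.01, with 12 of 23 genes at least 2-fold higher in replicate 1, and the branch site and U2 factors had a median of −0.31. With the trend of GC content, described below, removed, these medians were 0.27 and 0.06, and 1 hnRNP gene remained at least 2-fold higher in replicate 1. The medians of the SR and snRNP proteins changed sign in that step, at −0.06 and −0.09 after it and 0.67 and 0.32 before it. Largest among genes higher in replicate 1 were Snrpf with a log2 ratio of 3.31, Prpf39 with 1.89, Hnrnpd with 1.77, Hnrnpu (70.6 and 19.6 TPM), which codes for a chromatin-associated RNA-binding protein, with 1.74, and Sf3b1 with 1.59. Celf3 with −4.15 and Rbfox3 with −3.72 stood at the other end, but on 1 and 25 reads and on 2 and 27 reads. Sf3b5 followed with −1.74, Snrpa (19.6 and 55.9 TPM), which codes for an snRNP protein with an RNA recognition motif, with −1.34, and Sf3b4 (19.2 and 40.8 TPM) with −0.88.

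GC content of the transcripts moved with the ratio. The 19 splicing factor genes under 42% GC lay at a median of 1.36 on the log2 scale, and 16 of them were at least 2-fold higher in replicate 1, as were 586 of the 1080 protein-coding genes in that band. The 31 genes between 42% and 48% had a median of 0.79, and the 34 genes above it had a median of −0.31 with none at least 2-fold higher in replicate 1, against 328 of 7284 protein-coding genes there. Spearman's rho between GC content and the ratio was −0.795 over the 84 members and −0.708 over 11434 protein-coding genes, as a description across genes that share both libraries. The members' median GC content was 46.0%, against 50.6% over all protein-coding genes. With the GC trend of all protein-coding genes taken away, the median log2 ratio of the members was 0.17, and 4 members remained at least 2-fold higher in replicate 1 and 4 in replicate 2, against 6.87% and 5.34% of all protein-coding genes. On this scale Snrpf and Sf3b5 had log2 ratios of 2.30 and −2.36. The others higher in replicate 1 were Snrpc with 1.17, Sf3b2 with 1.03 and Hnrnpd with 1.03, and the others higher in replicate 2 were Celf3 with −3.36, Rbfox3 with −2.85 and Srsf3 with −1.49. Srsf3 (93.9 and 167 TPM) had −0.43 before this step, on the other side of 0 from most members of its GC content (40.7%). Rbm39, at 38.6% GC, had a log2 ratio of 1.28 before and 0.06 after this step. Levels of AT-rich members such as Rbm39 and Sf3b1 therefore carry a spread between libraries that GC content moves with, and its part in their levels was not tested.

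**Figure D2:**
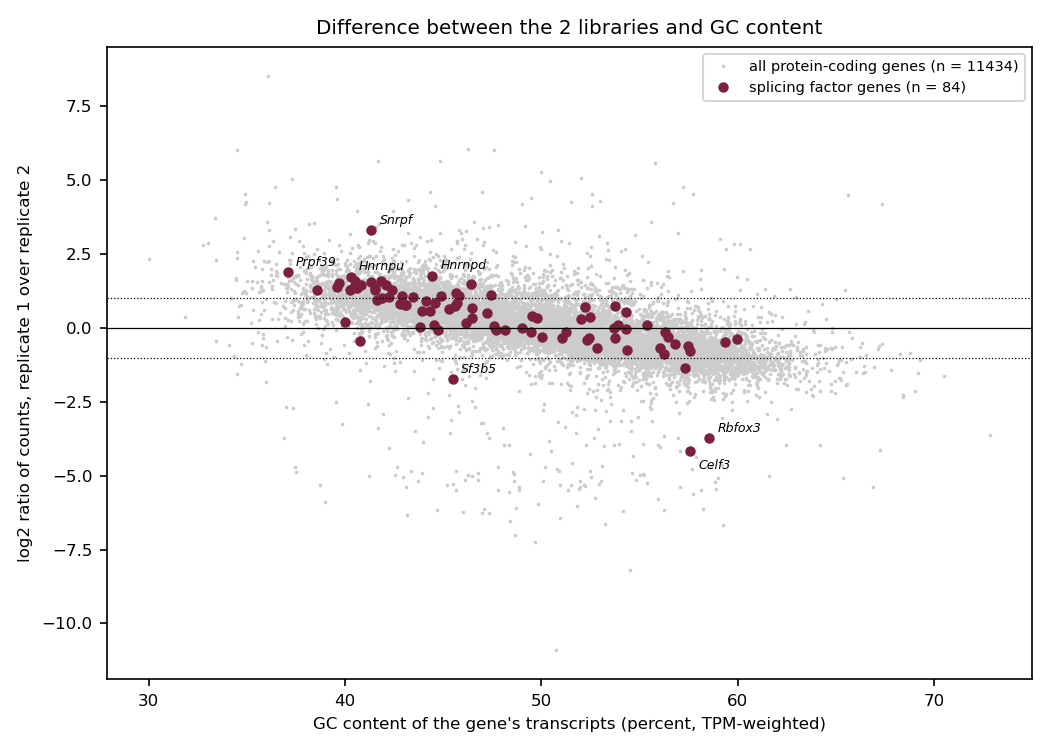
Log2 ratio of scaled counts, replicate 1 over replicate 2, against the GC content of each gene's transcripts in percent, for 84 splicing factor genes (dark points) and 11434 protein-coding genes (grey); dotted lines mark a 2-fold difference. Both sets slope down, and 16 of the 19 members under 42% GC lie above the upper dotted line.

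The transcript tables split each gene's TPM among annotated transcripts, whose classes come from GENCODE M21. Transcripts classed as retained intron held 24.4% ± 4.90 of the summed TPM of the splicing factor genes (27.9% and 20.96%), against 10.3% ± 0.746 over all protein-coding genes. Transcripts classed as nonsense-mediated decay held 8.55% ± 2.05 (9.999% and 7.10%), against 2.45% ± 0.0587. Protein-coding transcripts held 61.2% ± 7.84 of the members' TPM and 79.9% ± 0.558 of that of all protein-coding genes. By reads, in which short transcripts count for less, retained-intron transcripts held 13.1% ± 2.12 in the members and 5.94% ± 0.234 over all protein-coding genes, and decay transcripts 4.92% ± 0.749 and 2.45% ± 0.0736. The TPM share on retained-intron transcripts rested in part on a pair of genes: without Rbm39 it was 18.4%, and without Rbm39 and Srsf11 it was 14.8%. The TPM share on decay transcripts likewise rested in part on a few abundant genes, among them Srsf2, Hnrnpd and Hnrnpdl (described below). It was not computed without them.

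These shares depend on which genes have such a transcript in the annotation. Among the 77 members with a mean of at least 10 TPM, 32 had an annotated decay transcript (41.6%), against 24.3% of 6252 protein-coding genes at that level. For retained-intron transcripts the numbers were 42 members (54.5%) and 49.2% of protein-coding genes. Of the 32 members with a decay transcript, 14 had at least 10% of their TPM on that class, a share of 43.8%, against 44.1% of all protein-coding genes with such a transcript. The 10% was met in both libraries by 7 of the 32 members, against 475 of 1518 such genes (31.3%). By reads over both it was met by 13 members (40.6%), against 40.5%. Once a gene had a decay transcript, members thus lay at the background by mean share, with a median of 6.76% against 6.30%. Where both libraries had to pass, they lay below it. Of the 42 members with a retained-intron transcript, 28 had at least 10% of their TPM on it (66.7%), against 45.9% of all protein-coding genes with such a transcript. This held in both libraries for 17 of the 42 members, against 1093 of 3073 such genes (35.6%), a smaller excess. By reads it held for 22 members (52.4%), against 37.5%. The median share was 16.5% for the members and 7.97% for all such genes.

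By role, decay transcripts held most in the SR proteins, with 21.9% of the class's TPM in replicate 1 and 10.8% in replicate 2, followed by the hnRNPs with 12.9% and 9.19%. The branch site and U2 factors had 1.22% and 3.45%. Retained-intron transcripts held 53.5% and 35.8% of the TPM of the branch site and U2 factors, most of it on Rbm39, and 35.3% and 33.3% in the SR proteins. In snRNP proteins the shares were 8.85% and 4.61%.

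The decay transcripts that carried this TPM end their reading frame well before the last exon junction, which is the feature the decay machinery reads. At least 10% of a member's TPM lay on 16 decay transcripts of 14 genes, and in all 16 the last junction was 80 to 1766 bases after the stop codon. All 16 were taken by their annotated decay class, so this distance describes the annotation and tests nothing in these data. In 4 of them (Tra2b-206, Srsf3-201, Hnrnpl-213 and Prpf39-202) the stop lies in an exon that is in no coding sequence of the gene's protein-coding transcripts. Such exons are often called poison exons. Another 7 skip a coding exon, as Ptbp1-207 does with an exon of 34 bases. In 6, some of which also skip an exon, the stop codon is one that a protein-coding transcript uses too (Srsf2-204, Srsf6-201, Hnrnph3-204 and 3 transcripts of Hnrnpd).
The stretches below show where the reading frame ends inside the stop codon's exon in transcripts of these kinds and in Rbm38-206 and Hnrnpdl-205, which belong to none of them, from GENCODE M21 on mm10, 5′ to 3′ on the gene's strand with the stop codon in capitals. They are Tra2b-206 at chr16:22259181-22259240 (−), Srsf3-201 at chr17:29039454-29039487 (+), Hnrnpl-213 at chr7:28817335-28817393 (+), Ptbp1-207 at chr10:79862449-79862475 (+), Srsf1-204 at chr11:88049977-88050015 (+), Rbm38-206 at chr2:173022792-173022820 (+), Hnrnpdl-205 at chr5:100038593-100038652 (−) and Srsf2-204 at chr11:116852028-116852086 (−).
Tra2b-206: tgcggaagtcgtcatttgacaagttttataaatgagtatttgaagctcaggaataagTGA
Srsf3-201: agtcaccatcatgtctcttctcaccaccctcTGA
Hnrnpl-213: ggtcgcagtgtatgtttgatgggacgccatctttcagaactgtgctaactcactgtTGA
Ptbp1-207: gcgtctacggtgatgtgcagcgggTGA
Srsf1-204: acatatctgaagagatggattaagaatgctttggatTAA
Rbm38-206: gtgaccatggcagatcgggcagcggcTGA
Hnrnpdl-205: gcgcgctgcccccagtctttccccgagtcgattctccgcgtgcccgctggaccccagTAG
Srsf2-204: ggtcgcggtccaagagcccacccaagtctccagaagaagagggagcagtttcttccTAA

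Hnrnpdl, a paralog of Hnrnpd, had the largest and most even share, with 76.6% of its TPM on decay transcripts in replicate 1 and 76.8% in replicate 2. Nearly all of it lay on Hnrnpdl-205, whose stop is in the first of 8 exons. For most other genes the libraries were far apart. Hnrnpd had 69.7% and 44.9%, Srsf2 76.2% and 37.7%, U2af1l4 39.2% and 58.6%, and Srsf6 7.70% and 69.4%. Hnrnph3 had 5.88% and 67.8%, Ptbp1 42.5% and 28.8%, and Snrpa1, a gene of the branch-site snRNP, 26.9% and 40.7%. Srsf6 and Hnrnph3 thus passed 10% in replicate 2 only, while the other 6 passed it in both.

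The poison exon transcripts were uneven as well. Tra2b-206 held 42.6% of the TPM of Tra2b in replicate 1 and 4.99% in replicate 2, and Srsf3-201 held 19.5% and 2.05% of that of Srsf3. Hnrnpl-213 held 13.4% and 8.60%, and Prpf39-202 held 9.12% and 28.6%. Of those that skip a coding exon, Srsf1-204 held 38.3% and 5.78% of the TPM of Srsf1, and Ptbp1-207 held 35.0% and 12.5% of that of Ptbp1. U2af1l4-213, Hnrnph3-204, Snrpa1-201 and Hnrnpd-209 skip a coding exon too and held more in replicate 2, so neither kind lay on the side of 1 library. Rbm38-206 held 16.03% and 24.2%. Tra2b-206 and Srsf3-201 are longer in GENCODE M21 than in the deposited tables (1687 against 1590 bases and 2594 against 1919 bases), so their printed ends come from a later version of the transcript.

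Among retained-intron transcripts, Srsf11 had 98.0% of its TPM in replicate 1 and 89.2% in replicate 2, most of it on Srsf11-207, a transcript of 813 bases with 82.9% and 73.3%. Snrpb2, whose protein binds U2 small nuclear RNA, had 88.7% and 69.3%, Prpf19 80.8% and 75.1%, and Prpf31, of the tri-snRNP, 81.7% and 57.1%. Rbm39 had 77.3% and 66.5%. In these 5 genes retained-intron transcripts held most of the TPM in both libraries. By reads they did so in Srsf11 (95.1% and 75.0%) and Rbm39 (54.0% and 52.3%), but not in both libraries in Snrpb2 (68.4% and 38.1%), Prpf31 (60.7% and 34.7%) or Prpf19 (41.7% and 43.4%). Sf3b1, in which a retained intron is known from human red cell precursors, had 48.5% and 48.6%, Hnrnpu had 49.8% and 35.5%, and Srsf5 had 27.9% and 56.1%. By reads these shares were 17.4% and 16.3% in Sf3b1, 8.58% and 4.74% in Hnrnpu, and 41.6% and 69.7% in Srsf5. The main such transcripts of Sf3b1, Sf3b1-204 and Sf3b1-205, hold no whole intron of a protein-coding transcript. Whether they cover the known intron was not tested.

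Length sets part of these values, because a short transcript turns few reads into many TPM. Rbm39-213, of 711 bases, held 72.3% and 60.6% of the TPM of Rbm39 but 49.8% and 46.8% of its reads. Sf3b1-204, also of 711 bases, held 20.96% and 28.0% of the TPM of Sf3b1 and 3.65% and 6.16% of its reads, while the protein-coding Sf3b1-201 held 82.6% and 81.7% of the reads. The direction was the other way for Srsf5-212, of 2720 bases, with 27.8% and 56.0% of TPM and 41.3% and 69.6% of reads.

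**Figure D3:**
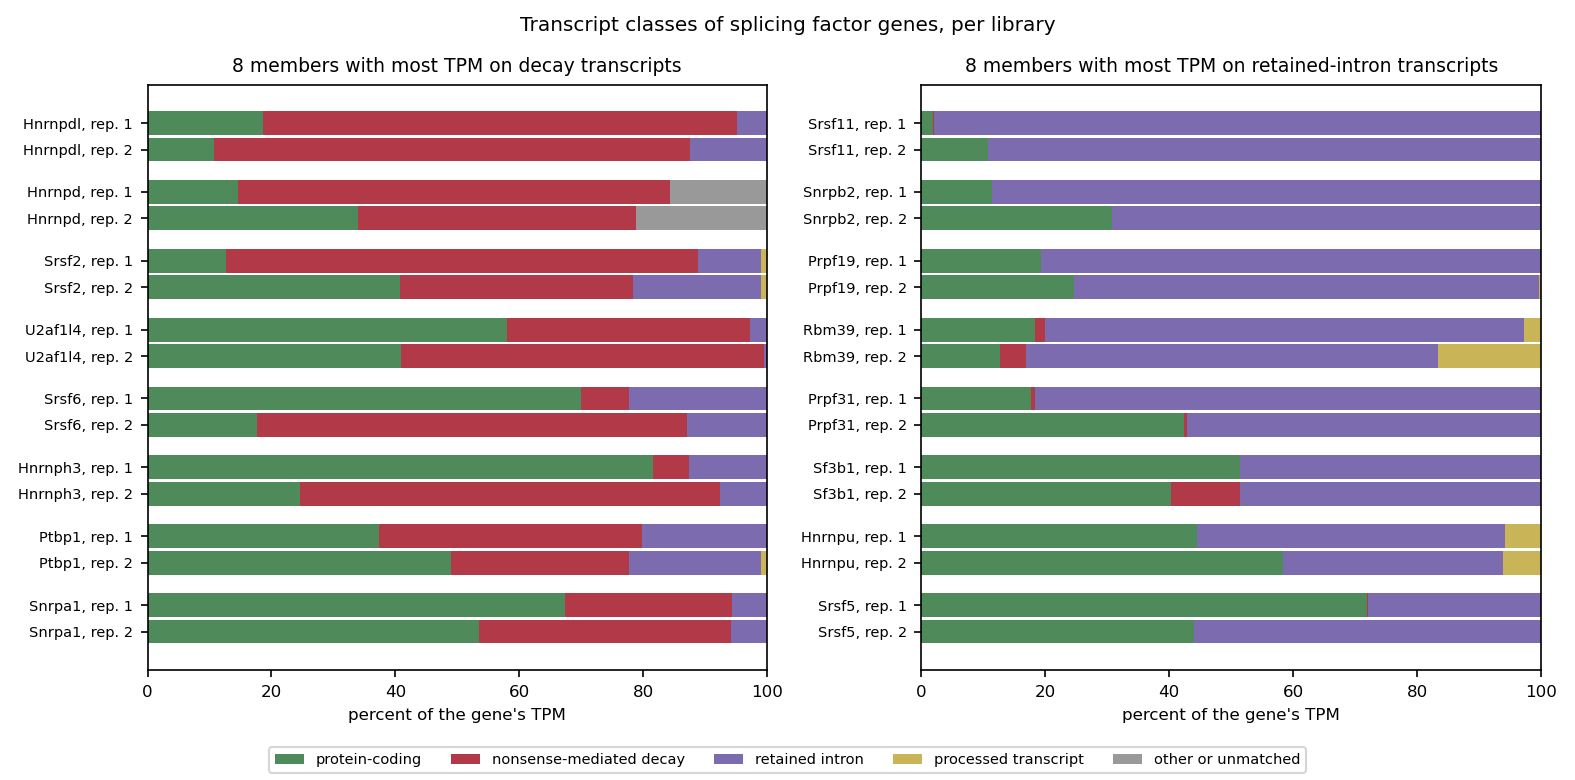
Percent of each gene's TPM on protein-coding, nonsense-mediated decay, retained-intron, processed and other transcripts, as stacked bars per library, for the 8 members with the largest mean share on decay transcripts (left) and the 8 with the largest on retained-intron transcripts (right). The upper pair on the left, Hnrnpdl, is nearly the same in both libraries, whereas Srsf6 and Hnrnph3 are mostly protein-coding in replicate 1 and mostly decay in replicate 2.

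At least 10% of a member's TPM lay on 26 retained-intron transcripts of 24 genes. Only 6 of them hold a whole intron of a protein-coding transcript. In the rest, exons overlap 1 or more such introns without holding a whole one, as in Srsf11-207 and Rbm39-213. An exon that another transcript skips counts as such an overlap, so the overlap alone does not show a retained intron. Srsf6-204 and Srsf2-203 hold 3 whole introns each, Srsf5-212 holds 2, and Srsf1-203, Prpf19-206 and Hnrnpk-217 hold 1 each. For each transcript the held intron found in the largest number of the gene's protein-coding transcripts was taken, and the shortest where numbers were equal. That number need not be a majority. The intron taken has 1229 bases in Srsf5-212, 446 in Srsf6-204, 378 in Srsf1-203, 269 in Srsf2-203, 80 in Prpf19-206 and 78 in Hnrnpk-217. For 4 of these transcripts its ends are printed, which are splice sites left unused there.
These introns of Srsf5-212 (chr12:80947866-80949094, +), Srsf1-203 (chr11:88049599-88049976, +), Srsf2-203 (chr11:116851752-116852020, −) and Prpf19-206 (chr19:10899125-10899204, +) are given by their first 20 and last 20 bases, from GENCODE M21 transcripts on mm10, 5′ to 3′ on the gene's strand, with the donor GT and the acceptor AG in capitals.
Srsf5-212 donor: GTttgttgaaatacagtttt
Srsf5-212 acceptor: cataattgtcttgtgttaAG
Srsf1-203 donor: GTacataagatgattggtga
Srsf1-203 acceptor: tttcatgtgtctttctgtAG
Srsf2-203 donor: GTaatgtctgcgggaatctg
Srsf2-203 acceptor: tgcattttccccctttaaAG
Prpf19-206 donor: GTctcttgtattccctgctg
Prpf19-206 acceptor: aacatcatcttttctctcAG

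Srsf1-203 held 34.7% and 31.6% of the TPM of Srsf1, the most even of the 4, and Srsf2-203 held 10.1% and 20.7% of that of Srsf2. Prpf19-206 held 28.1% and 50.2% of the TPM of Prpf19. The Srsf1 intron of 378 bases ends directly before the exon in which the reading frame of Srsf1-204 stops.

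The leading transcript, the one with the largest mean share of a gene's TPM, was protein-coding in 60 of the 77 members, retained-intron in 10, decay in 5 and processed in 2. It was the same in both libraries for 55 members, 13 of which have a single transcript in the tables, and in 7 of the 55 it was not protein-coding. The same was not counted over all protein-coding genes, so these counts do not show whether members are unusual. Hnrnpr, a paralog of Syncrip, differed most: Hnrnpr-208, a retained-intron transcript of 473 bases, held 79.8% of its TPM in replicate 1, at 291 TPM, and was listed at 0 in replicate 2. Srsf9-201, the protein-coding form of Srsf9, held 14.4% in replicate 1 and 92.9% in replicate 2. Hnrnph3-204 held 5.88% and 67.8%, Srsf6-203, which is protein-coding, 70.0% and 17.6%, and Hnrnpd-208 52.0% and 0%. The gene total of Hnrnpr, 365 and 55.5 TPM, followed that 1 transcript, while Hnrnph3 had 73.3 and 59.6 TPM and Srsf9 71.5 and 59.8 TPM in all.

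Reads of a gene and of a near-identical processed pseudogene can be split between them by the estimate. Of the 88 members, 10 had 12 expressed pseudogene copies with at least 95% identity over at least 80% of the copy's length, and their values are uncertain for that reason. Copies of other protein-coding genes were not counted. Snrpg had 43.9 and 40.6 TPM while its copy Gm8186, identical over the aligned stretch, had 115 and 105 TPM. Snrpf had 13.5 and 1.51 TPM and its copy Gm13092 112 and 65.6 TPM, so that gene and copy together had 126 and 67.1 TPM. The large ratio of Snrpf between the libraries is thus a ratio of the smaller share of a pair. Tra2b had 126 and 85.8 TPM, and its copy Gm10254 had 1.03 TPM in replicate 1 and 77.2 TPM in replicate 2. The sum of Tra2b and its copy was 127 and 163 TPM, with the order of the libraries turned round. Hnrnpa1, which codes for a core hnRNP protein, had 176 and 193 TPM and its copies 104 and 25.7 TPM, and Hnrnpa3 had 95.8 and 38.1 TPM and its copies 112 and 58.2 TPM. For Srsf10, Hnrnpk, Hnrnpf, Srsf5 and Sf3b4 the copies held less than the gene in both libraries.

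**Figure D4:**
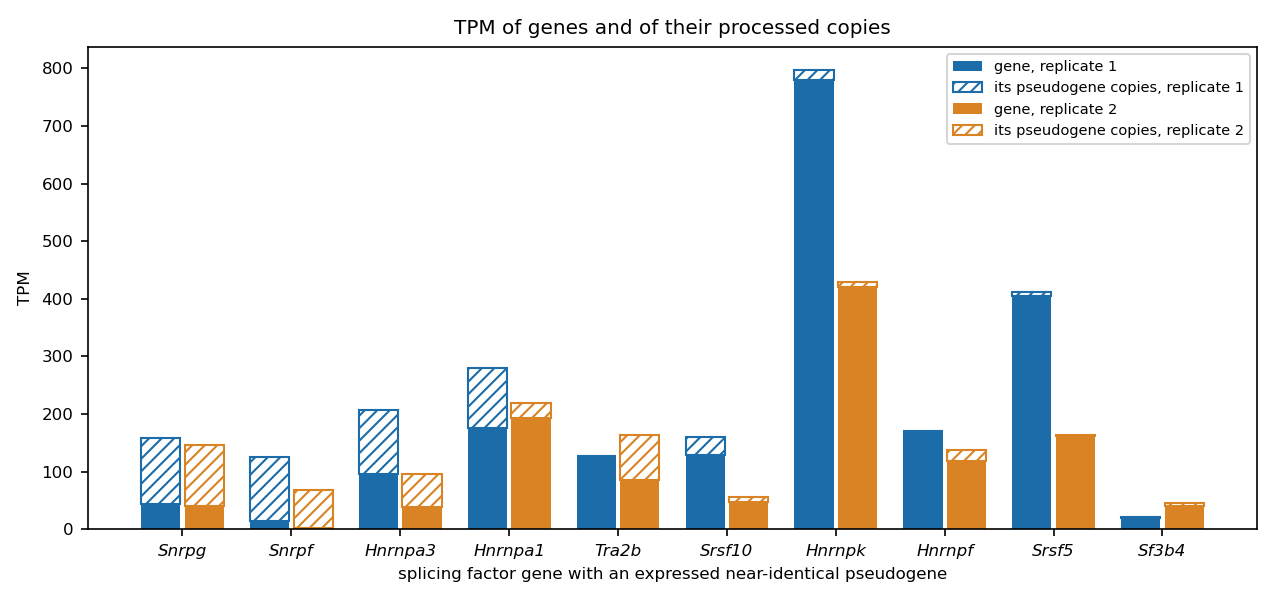
TPM of 10 splicing factor genes (filled bars) with the summed TPM of their expressed near-identical pseudogenes stacked on top (hatched), replicate 1 left and replicate 2 right for each gene. The hatched part is larger than the gene for Snrpg, Snrpf and Hnrnpa3, and for Tra2b it stands at 1.03 TPM in replicate 1 and 77.2 TPM in replicate 2.

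Exons of 18 members overlap exons of another gene with at least 1 TPM, 17 of them on the opposite strand, and without a stated strand setting reads of such a pair cannot be told apart where they overlap. Overlaps of other protein-coding genes were not counted. Hnrnpu (70.6 and 19.6 TPM) shares 804 exonic bases with Cox20, an assembly factor of the respiratory chain, at 292 and 52.7 TPM. Both were higher in replicate 1. Rbm38 (151 and 186 TPM) shares 227 bases with the antisense gene Gm14453, at 107 and 281 TPM. Prpf39 shares 599 bases with Fkbp3, at 49.7 and 32.1 TPM.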

How the data were processed

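Polyadenylated RNA of MEL cells (2% DMSO, 5 days) was sequenced single-end, in 1 group of 2 libraries. The genome build was mm10 and the annotation GENCODE M4, per the submitters' file lists. Not given in the sources used here: program and aligner. The authors deposited expected counts, which are unscaled estimates of reads, and TPM and FPKM, which are scaled to length and depth, per the file headers. The percent of a gene held by each transcript was also deposited, and was computed again here from TPM. FPKM and the posterior mean TPM that the authors deposited served only as alternatives.

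Symbols, classes, coordinates and transcript sequences came from GENCODE M21, matched by Ensembl ID (42462 of 43346 genes). A further 26345 rows that name no Ensembl gene stayed out of gene sets and count scaling. They held 0.0296% and 0.0465% of reads and 0.806% and 1.49% of TPM in replicates 1 and 2. Depth was 26149725 and 14149299 estimated reads.

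Expected counts were rounded, and scaled by TMM (edgeR 4.0.16, R 4.3.3) or DESeq2 1.42.0 size factors as an alternative. A prior count of 1 was added for log2 ratios, which were taken where counts averaged 10 or more. The GC content of a gene weights its transcripts by TPM, and the trend was a lowess curve (span 0.3, statsmodels 0.14.6) through protein-coding genes averaging 100 counts or more. Pseudogenes averaging 1 TPM or more were aligned to member transcripts with BLAST 2.17.0. Other steps used Python 3.11.15, pandas 2.3.3 and numpy 2.4.6, and figures matplotlib 3.10.9. The ratio steps were tested on simulated data.

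With 1 group of 2 libraries nothing was tested and no p-value is given. Named genes were, in each role class, the 4 highest and 2 lowest by mean TPM, every Ptbp, Mbnl, Celf and Rbfox gene, Rbm38 and Rbm39, the 5 largest ratios in each direction, the 8 largest shares on decay and on retained-intron transcripts, the 5 largest differences in leading transcript share, members without reads, and of each list of other splicing genes the 3 highest and the lowest. Genes named for their transcripts' structure, copies or overlaps were chosen after their values were seen. The members and lists were chosen with earlier results of these data known. A member that this rule takes is not reported here by name, though counts, medians and shares include it. One listed helicase symbol, Ddx39a, had no match. Alternatives covered other detection limits, units, scalings, filters and share limits and each library alone.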

Additional observations from a re-analysis of the deposited data

How the results depend on the processing

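Of the 51 values under alternatives, 39 stayed within 1 SD of the reported value (0.1 for the median log2 ratio, and within 1.5 times for counts) and 12 moved further. With 2 libraries, leaving 1 out moves a mean by less than 1 SD in every case. The share of the transcriptome with 1 library alone was thus bound to stay within the limit. Of these summaries only the median log2 ratio could change sign, and it did so under no alternative. The median level of 66.7 TPM was 74.1 over members with at least 1 TPM in either library and 80.7 with TPM rescaled without mitochondrial genome genes. The share of 1.03% was 1.74% by reads. The median log2 ratio of 0.54 was 0.26 with library size alone, 0.28 as a ratio of TPM and 0.17 without the GC trend. The 27 members higher in replicate 1 were 17 with library size alone, 17 by TPM and 4 without the GC trend. The 4 higher in replicate 2 were 7 with library size alone and 2 at a minimum of 100 counts. The 28 members with at least 10% of TPM on retained-intron transcripts were 18 at a limit of 20%. That is 42.9% of members with such a transcript, against 33.6% of all protein-coding genes with one. With 1 library alone, 80 to 81 members were detected, the median level was 63.4 to 70.8 TPM, their share was 0.858% to 1.21%, and 11 to 12 members passed 10% on decay transcripts (34.4% to 37.5% of members with one, against 39.0% to 42.8% of all protein-coding genes with one) and 23 to 23 on retained-intron transcripts (54.8% of members with one, against 43.2% to 43.6%). The cause of these shifts was not tested. No paired analysis was possible because there is 1 group only. With 2 libraries the spread of each value rests on 1 difference, transcript shares rest on an estimate from single-end reads, and at 14149299 reads in replicate 2 genes under 0.212 CPM cannot be told from absent ones.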
